A study of Homo sapiens with 12 samples.

Results

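The genes of the proteasome were followed in a human liver tumour cell line given acriflavine at 2.5 or 5 µM. The members are the protein-coding genes of the count table whose symbol begins with PSMA, PSMB, PSMC, PSMD, PSME, PSMF or PSMG followed by a number. It found 49 of the 63152 genes in the table. The names PSMC3IP and PSME3IP1 stand for proteins that bind a proteasome subunit and are not part of the particle, so these 2 genes are described apart from the other 47. PSMB3, a constitutive beta subunit, was not matched to a row by its identifier and is not analysed here.

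The proteasome is the protease that degrades proteins tagged with ubiquitin. Its core particle is a barrel of stacked rings, in which the outer rings of alpha subunits (PSMA genes) form the gate and the inner rings of beta subunits (PSMB genes) hold the cutting sites. PSMB5, PSMB6 and PSMB7 carry the constitutive sites, and interferon is known to replace them with PSMB8, PSMB9 and PSMB10 in the immunoproteasome, which makes peptides for display on MHC class I. The regulatory particle (PSMC and PSMD genes) recognises ubiquitin, removes it and unfolds the substrate. PSME genes encode other caps of the barrel, and PSMG genes with some PSMD genes encode chaperones that build the particles.

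The cells were labelled HepG2, a hepatoblastoma line, and the descriptions of all 12 libraries name HepG2S1, its sorafenib-resistant derivative obtained by months of rising sorafenib doses. Control cultures are labelled as without treatment, while the protocol describes the vehicle DMSO. Treated cultures received 2.5 µM or 5 µM acriflavine, a DNA-binding acridine dye also known as an inhibitor of hypoxia-inducible factor 1, and all cultures were collected after 24 h. Each group had 4 libraries of poly-A RNA, called biological replicates in the labels, from this single line, and p-values measure the spread between these samples only.

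The control libraries held 11891849 to 14024568 counts each, those given 2.5 µM held 13095641 to 15115510 and those given 5 µM held 10733567 to 15116842. Of the 16839 genes with enough counts to be tested, 78.2% changed at 5 µM against control, 59.1% at 2.5 µM against control and 68.4% at 5 µM against 2.5 µM, so a changed gene was the usual case. Changed means an adjusted p under 0.05 in edgeR's quasi-likelihood test with Benjamini-Hochberg adjustment over all 16839 genes, here and throughout. Of 10 hepatocyte markers, ALB, AFP and TTR had 1 or 2 counts over all 12 libraries, and CPS1 averaged 2185 ± 45.0 CPM in controls (SD, n = 4). The fibroblast matrix gene DCN averaged 563 ± 46.8 CPM in the same libraries.

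Levels are given in CPM, counts relative to the TMM-scaled size of the library, as mean ± SD over 4 libraries where they are summarised. Every rise, fall or fold change written with ± and an adjusted p is on the log2 scale, with its SE. Of the 47 proteasome genes 44 could be tested. PSMB8, the gamma-interferon-inducible counterpart of PSMB5, had 32 counts over all libraries, PSMB11, known from the thymus, had 9, and PSMA8, known from the testis, had 0. At 5 µM against control 10 of the 44 rose and 25 fell, and 9 did not pass the test. This is 79.5% changed, against 78.2% of all genes tested, so the share that changed was close to the background. The share that fell was 25 of 44, against 39.4% of all genes, and the share that rose was 10 of 44, against 38.7% of all genes. The 10 include PSMB9, which passed the count filter through treated libraries alone, so the filter favoured its rise. The median log2 fold change of the 44 was -0.20, against -0.015 for all genes.

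At 2.5 µM against control 15 members rose and 11 fell, or 59.1% changed, the same share as among all genes (59.1%, of which 30.7% rose and 28.5% fell). The median of the members was 0.023, against 0.019 for all genes. The 15 that rose also include PSMB9, with the same limit. Between the doses, at 5 µM against 2.5 µM, 6 members rose and 27 fell (75% changed, against 68.4% of all genes, of which 33.6% rose and 34.8% fell), with a median of -0.20 against -0.012. The comparisons with control share their control libraries. Without the TMM factors, on library size alone, the median of all genes was 0.12 at 5 µM against control, and 14 members rose and 16 fell. On the same scale 11 members rose and 19 fell at 5 µM against 2.5 µM. In a bulk RNA sample, fewer cells of a kind and less RNA per cell cannot be told apart.

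**Figure D1:**
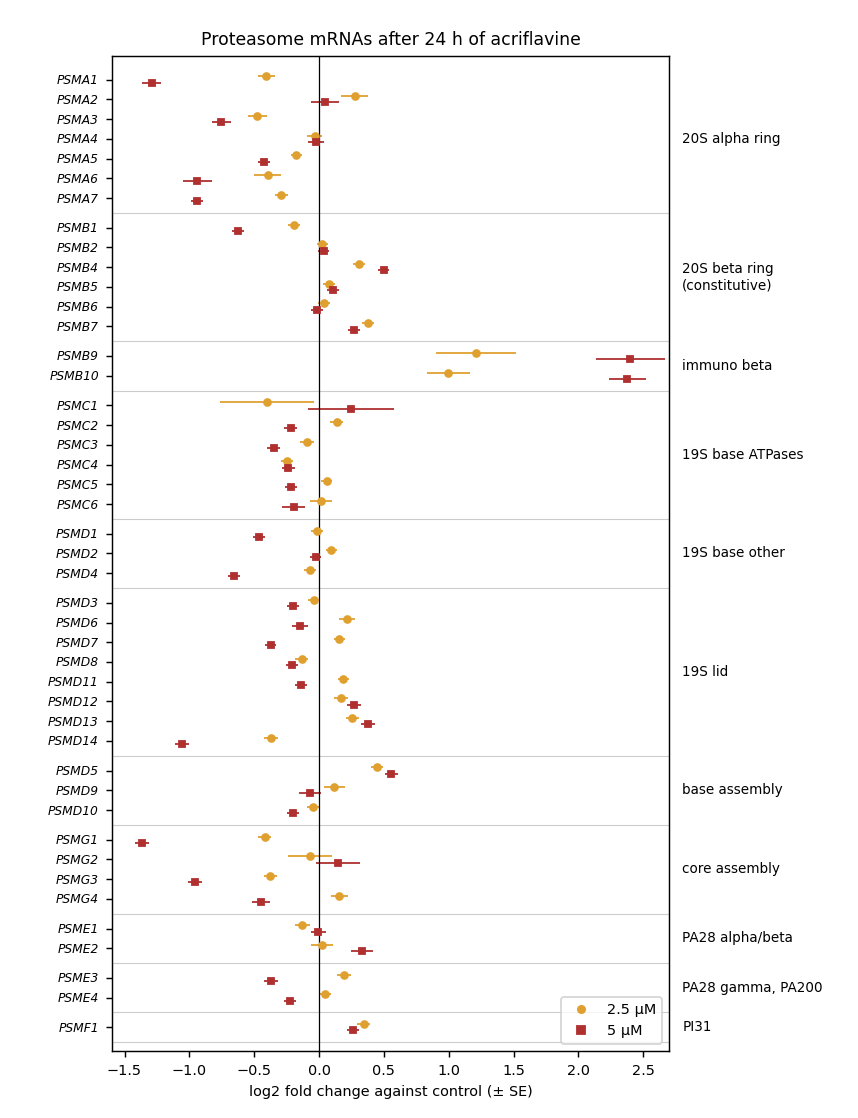
Log2 fold change against control (x axis, ± SE) of the 44 tested proteasome genes, grouped by their place in the particle, at 2.5 µM (circles) and 5 µM (squares), 4 libraries a group. The immunoproteasome subunits PSMB9 and PSMB10 lie far to the right of all other members, and PSMG1, PSMA1 and PSMD14 lie farthest to the left.

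Taken as a sum, the proteasome genes were lowest at 5 µM on the TMM scale. Of all counts they took between 0.617% and 0.666% in controls, between 0.669% and 0.694% at 2.5 µM and between 0.634% and 0.643% at 5 µM. Their summed level was 6387 to 6973 CPM in controls, 6722 to 7048 CPM at 2.5 µM and 6054 to 6100 CPM at 5 µM. The 4 libraries at 5 µM were below all 8 others in summed level, and the other groups overlapped. The regulatory particle summed to 2670 to 2683 CPM at 5 µM, against 2920 to 3200 CPM in controls. The constitutive core summed to 2365 to 2422 CPM at 5 µM, within the 2371 to 2580 CPM of the controls except for its lowest library.

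Levels per kilobase of exon, which allow genes to be compared, spanned a wide range in controls. PSMB4 was highest at 205 ± 8.80 CPM per kilobase (SD, n = 4), followed by PSMA7 at 175 ± 13.3 and PSMB7 at 169 ± 9.82, which did not differ beyond their spread. PSMB6 had 155 ± 5.65, PSMB5 had 107 ± 3.79 and PSMB1 had 96.5 ± 4.80 CPM per kilobase. The regulatory particle was led by PSMC4 at 86.4 ± 4.67 and PSMD7 at 75.7 ± 1.35 CPM per kilobase. At the low end, PSMB10 had 1.52 ± 0.335, PSMB9 had 0.173 ± 0.0254 and PSMB8 had 0.0731 ± 0.0191 CPM per kilobase, so the immunoproteasome subunits stood near the bottom of the family. PSMC1, PSMA2 and PSMA6 were also low, at 0.125 ± 0.0558, 1.45 ± 0.115 and 2.10 ± 0.329 CPM per kilobase, and these are among the 4 members whose pseudogenes hold most of the summed counts. The order depends on the length used. With coding length PSMB4 was still highest, at 560 CPM per kilobase, and PSMB2 was the second, at 461. With the longest transcript PSMB7 came first at 308 CPM per kilobase, then PSMA7 at 299 and PSMB6 at 258, and PSMB4 was the fourth at 214.

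The alpha ring, which forms the gate of the barrel, fell in most of its genes. At 5 µM against control 5 of its 7 genes fell and 0 rose, with a median log2 fold change of -0.75. That is 71.4% changed, against 78.2% of all genes, while 39.4% of all genes fell. The exceptions were PSMA2, at 0.046 ± 0.11 (SE, adjusted p = 0.708), and PSMA4, at -0.024 ± 0.061 (SE, adjusted p = 0.723). In the comparison of 2.5 µM with control 5 fell and 1, PSMA2, rose, with a median of -0.29 (85.7% changed, against 59.1% of all genes). At 5 µM against 2.5 µM 6 fell and 0 rose, with a median of -0.28 (85.7% changed, against 68.4% of all genes). The values of the 5 genes that fell at 5 µM did not overlap with the controls, as for 70.8% of all genes tested in that comparison.

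PSMA1 had 56.8, 59.4, 58.5 and 53.8 CPM in the control libraries, 40.8, 43.5, 49.2 and 39.2 CPM at 2.5 µM and 25.6, 22.7, 22.3 and 23.0 CPM at 5 µM. These values do not overlap between any of the groups and fall with each dose. Groups without overlap were found for 50.5% of all genes at 2.5 µM against control and 62.1% at 5 µM against 2.5 µM. PSMA1 was 2.45-fold lower at 5 µM than in controls, a log2 fold change of -1.29 ± 0.072 (SE, adjusted p = 2.13e-17). At 2.5 µM it fell by 0.41 ± 0.067 (SE, adjusted p = 3.92e-06), and between the doses it fell by 0.89 ± 0.073 (SE, adjusted p = 1.58e-12). PSMA7 had 288, 293, 303 and 339.6 CPM in the control libraries, 254, 254, 242 and 249.7 CPM at 2.5 µM and 164, 163, 158 and 152 CPM at 5 µM. It is among the most abundant members, and all 3 groups stood apart. PSMA7 fell by 0.94 ± 0.049 (SE, adjusted p = 2.8e-18) at 5 µM against control, by 0.29 ± 0.048 (SE, adjusted p = 3.34e-06) at 2.5 µM and by 0.65 ± 0.049 (SE, adjusted p = 1.54e-13) between the doses.

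PSMA3 had 85.2, 87.5, 74.2 and 78.3 CPM in the control libraries, 56.7, 62.2, 59.4 and 55.6 CPM at 2.5 µM and 45.7, 44.5, 43.6 and 58.3 CPM at 5 µM. Replicate 4 at 5 µM lies within the 2.5 µM values and below the controls, and the other 3 libraries at 5 µM lie below both groups. PSMA3 fell by 0.75 ± 0.075 (SE, adjusted p = 5.17e-10) at 5 µM and by 0.48 ± 0.073 (SE, adjusted p = 2.99e-06) at 2.5 µM against control. PSMA5 had 164 ± 0.792 CPM in controls, 145 ± 4.01 CPM at 2.5 µM and 122 ± 4.64 CPM at 5 µM, with no overlap between groups, and fell by 0.43 ± 0.045 (SE, adjusted p = 2.42e-10) at 5 µM against control. PSMA4 had 193 ± 13.6 CPM in controls, 188 ± 7.05 CPM at 2.5 µM and 189.6 ± 21.0 CPM at 5 µM, and its groups overlapped in every comparison.

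PSMA6 had 12.4, 11.5, 16.3 and 14.5 CPM in the control libraries, 10.7, 10.6, 9.94 and 10.1 CPM at 2.5 µM and 7.31, 6.96, 7.55 and 6.62 CPM at 5 µM. The groups do not overlap, and by its own counts PSMA6 fell by 0.94 ± 0.11 (SE, adjusted p = 2.74e-09) at 5 µM against control, by 0.40 ± 0.10 (SE, adjusted p = 0.0014) at 2.5 µM against control and by 0.54 ± 0.11 (SE, adjusted p = 8.88e-05) between the doses. PSMA2, with 7.73 ± 0.616 CPM in controls, 9.38 ± 0.607 CPM at 2.5 µM and 7.98 ± 0.298 CPM at 5 µM, rose by 0.28 ± 0.10 (SE, adjusted p = 0.0247) at 2.5 µM against control and fell by 0.23 ± 0.10 (SE, adjusted p = 0.0494) between the doses. The pseudogenes named after these genes hold more counts than the genes themselves, so both are also given with the pseudogene counts added.

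Processed pseudogenes are copies of a messenger RNA that were written back into the genome, and their sequence can be close enough to the parent to draw its reads. In the annotation 16 of the 47 proteasome genes have pseudogenes named after them, and 15 of these have counts in the table. In 4 genes the pseudogenes hold most of the summed counts, with 98.8% for PSMC1, 91.7% for PSMA6, 88.2% for PSMA2 and 66.4% for PSME2. In 9 genes they hold at least 10%. Stretches of 3 of these pairs are printed to show how close the copies are. Each line gives 75 bases, the number of sequencing cycles, from the start of the first stretch of that length aligned without a gap, taken from the GENCODE 29 transcripts. Capitals mark bases that differ between a gene and its pseudogene, and a line without capitals is the same in both.
PSMA6: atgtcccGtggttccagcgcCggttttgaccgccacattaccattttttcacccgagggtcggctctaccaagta
PSMA6P1: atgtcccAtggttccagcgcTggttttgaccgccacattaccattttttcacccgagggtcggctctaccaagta
PSMA2: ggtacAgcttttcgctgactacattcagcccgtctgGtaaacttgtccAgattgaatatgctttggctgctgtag
PSMA2P3: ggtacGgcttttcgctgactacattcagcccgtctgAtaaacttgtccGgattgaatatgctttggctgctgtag
PSMC1: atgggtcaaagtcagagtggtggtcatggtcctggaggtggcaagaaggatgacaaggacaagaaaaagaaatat
PSMC1P1: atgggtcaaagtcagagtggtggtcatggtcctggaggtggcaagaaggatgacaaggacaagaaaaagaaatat

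Over the whole coding sequence PSMC1 and PSMC1P1, on chromosome 3, differ at 1 of 1320 aligned bases, and 1171 of 1249 windows of 75 bases are identical between them. Such windows number 104 of 685 for PSMA6 and PSMA6P1, 49 of 691 for PSME2 and PSME2P2 and 0 of 631 for PSMA2 and PSMA2P3. PSMA6 and PSMA6P1 are 97.4% identical, PSMA2 and PSMA2P3 94.4% and PSME2 and PSME2P2 96.6%. How reads that match several places were counted is not given in the sources used here. The counts of each gene and its pseudogenes were therefore also added together and tested, an alternative chosen after seeing the data. The sum does not show whether reads counted for a pseudogene came from the parent or from the pseudogene itself. With the sum, PSMA6 had a log2 fold change of -0.089 ± 0.050 (SE, adjusted p = 0.0999) at 5 µM against control, and its fall did not pass the test. The sum for PSMA2 rose by 0.32 ± 0.056 (SE, adjusted p = 4.52e-06) at 5 µM and by 0.25 ± 0.056 (SE, adjusted p = 0.000267) at 2.5 µM against control.

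The sum for PSMC1 was 57.4 ± 5.24 CPM in controls, 64.6 ± 2.31 CPM at 2.5 µM and 61.1 ± 5.60 CPM at 5 µM. It rose by 0.17 ± 0.065 (SE, adjusted p = 0.0256) at 2.5 µM against control and had 0.095 ± 0.066 (SE, adjusted p = 0.188) at 5 µM against control. PSME2 moved little, with a rise of 0.21 ± 0.055 (SE, adjusted p = 0.000941) at 5 µM against control in the sum. With all pseudogene counts added, 11 members rose and 24 fell at 5 µM against control. In the alpha ring 1 gene then rose and 4 fell, and the median was -0.43. The large falls of PSMA1 and PSMD14 stayed, at -1.27 ± 0.067 (SE, adjusted p = 3.91e-18) and -1.07 ± 0.058 (SE, adjusted p = 6.07e-18) in the sums.

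**Figure D2:**
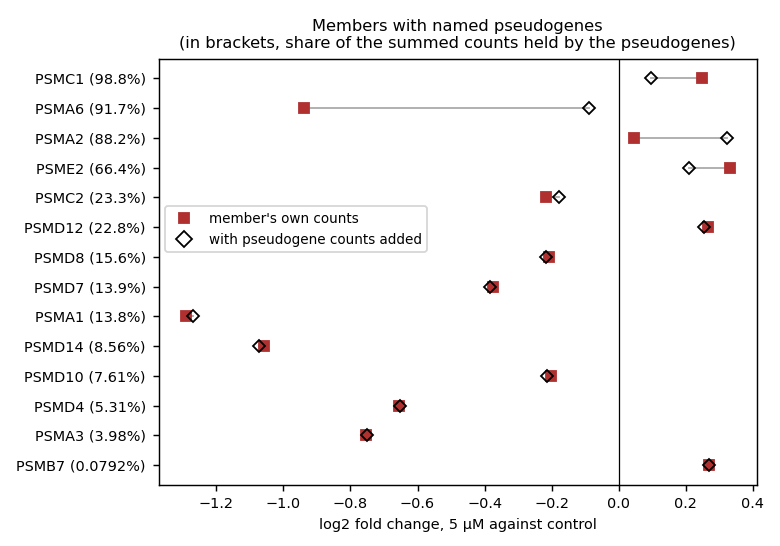
Log2 fold change at 5 µM against control (x axis) of the proteasome genes with named pseudogenes that hold 2 or more counts, from the gene's own counts (squares) and with the pseudogene counts added (diamonds), ordered by the share of the summed counts in pseudogenes. PSMA6 lies at -0.089 with the pseudogenes and at -0.94 without them, PSMA2 at 0.32 and 0.046, and the squares and diamonds of the genes listed under PSME2 nearly coincide.

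The constitutive beta ring held both rises and falls. Of its 6 genes analysed, 3 rose and 1 fell at 5 µM against control, with a median of 0.072. That is 66.7% changed, against 78.2% of all genes. With 2.5 µM against control 2 rose and 1 fell, and at 5 µM against 2.5 µM 1 rose and 2 fell. Each is 50% changed, against 59.1% and 68.4% of all genes. On library size alone 5 rose and 1 fell at 5 µM against control, and 3 rose and 1 fell between the doses. PSMB1 was the gene that fell at 5 µM against control on both scales. It had 218 ± 10.8 CPM in controls, 190.4 ± 5.59 CPM at 2.5 µM and 141 ± 5.10 CPM at 5 µM, with no overlap between groups, and fell by 0.63 ± 0.047 (SE, adjusted p = 4.05e-14) at 5 µM against control. PSMB2 had 278 ± 14.3 CPM in controls, 283 ± 7.99 CPM at 2.5 µM and 285 ± 5.05 CPM at 5 µM with overlapping groups, and its log2 fold change at 5 µM against control was 0.036 ± 0.044 (SE, adjusted p = 0.454). It rose there by 0.17 on library size alone.

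PSMB4 had 424, 430.0, 457 and 461 CPM in the control libraries, 557, 541, 519 and 576 CPM at 2.5 µM and 631, 634, 625 and 614 CPM at 5 µM. PSMB4, a subunit without a cutting site, had the highest CPM of all members in every group, a scale that does not take gene length into account. Its groups did not overlap, and it rose by 0.50 ± 0.043 (SE, adjusted p = 2.05e-12) at 5 µM against control, by 0.31 ± 0.043 (SE, adjusted p = 2.35e-07) at 2.5 µM against control and by 0.19 ± 0.043 (SE, adjusted p = 0.000211) between the doses. The opposite courses of PSMB4 and PSMA7, both abundant core subunits, put them 1.41-fold up and 1.92-fold down at 5 µM against control.

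Of the 3 constitutive cutting subunits, PSMB7 rose, PSMB5 rose slightly and PSMB6 did not pass the test at 5 µM. PSMB7 had 279, 297, 318 and 312 CPM in the control libraries, 401, 378, 382 and 404 CPM at 2.5 µM and 369.6, 368, 352 and 362 CPM at 5 µM. PSMB7, the trypsin-like site, was highest at 2.5 µM in all 4 libraries and above the controls at both doses. It rose by 0.38 ± 0.045 (SE, adjusted p = 9.16e-09) at 2.5 µM against control and by 0.27 ± 0.045 (SE, adjusted p = 2.2e-06) at 5 µM against control, and fell by 0.11 ± 0.044 (SE, adjusted p = 0.0316) between the doses, a fall that did not pass the test in 5 of the other settings. PSMB5 had 181, 185, 191 and 197 CPM in the control libraries, 208, 189, 196 and 203 CPM at 2.5 µM and 208, 197, 204 and 203 CPM at 5 µM. PSMB5, the chymotrypsin-like site and the target of the drug bortezomib, rose by 0.11 ± 0.045 (SE, adjusted p = 0.0298) at 5 µM against control. Its lowest value at 5 µM lies at the highest control value, and the call was lost in 7 of the fits that left out a library and in the fit without a count filter. Its log2 fold change at 2.5 µM against control was 0.079 ± 0.045 (SE, adjusted p = 0.131). PSMB6 had 217, 219, 233 and 230.3 CPM in the control libraries, 238, 222, 216 and 248 CPM at 2.5 µM and 232, 225, 218 and 214 CPM at 5 µM. The groups of PSMB6, the caspase-like site, overlapped, and its log2 fold change was -0.017 ± 0.047 (SE, adjusted p = 0.75) at 5 µM and 0.040 ± 0.047 (SE, adjusted p = 0.484) at 2.5 µM against control, although on library size alone it rose at 5 µM by 0.12.

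The immunoproteasome subunits PSMB9 and PSMB10 rose with dose, by the largest factors of any member, from a low level. PSMB10 had 2.81, 2.64, 2.15 and 3.64 CPM in the control libraries, 5.90, 5.49, 4.86 and 6.18 CPM at 2.5 µM and 17.2, 12.2, 15.5 and 13.9 CPM at 5 µM. The groups do not overlap, and every library at 5 µM had more than 4 times the mean of the controls. PSMB10 was 5.20-fold higher at 5 µM than in controls, a log2 fold change of 2.38 ± 0.14 (SE, adjusted p = 1.03e-16). It rose by 1.00 ± 0.16 (SE, adjusted p = 3.33e-06) at 2.5 µM against control and by 1.38 ± 0.12 (SE, adjusted p = 6.07e-12) between the doses. PSMB9 had 0.547, 0.440, 0.626 and 0.508 CPM in the control libraries, 0.833, 0.985, 1.46 and 1.61 CPM at 2.5 µM and 3.12, 2.75, 2.56 and 2.88 CPM at 5 µM. These too do not overlap between groups. PSMB9 was 5.28-fold higher at 5 µM than in controls, a log2 fold change of 2.40 ± 0.26 (SE). At 2.5 µM against control its log2 fold change was 1.21 ± 0.31 (SE). Because PSMB9 passed the count filter through treated libraries alone, the filter favoured both differences from control, and no p-value is given for them. Between the doses PSMB9 rose by 1.19 ± 0.21 (SE, adjusted p = 8.6e-06).

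The counts behind these levels are few. PSMB10 had 139 counts in controls, 311 at 2.5 µM and 768 at 5 µM over 4 libraries each. PSMB9 had 26 in controls, 68 at 2.5 µM and 148 at 5 µM. Its ratio at 5 µM against control, scaled to depth, was 5.36, with an exact 95% interval of 3.52 to 8.47 that covers counting error only. PSMB8 had 0.234, 0.293, 0.179 and 0.169 CPM in the control libraries, 0.151, 0.141, 0.154 and 0.202 CPM at 2.5 µM and 0.356, 0.0859, 0.513 and 0 CPM at 5 µM. PSMB8, the third inducible subunit, stood on 12 counts at 5 µM and 11 in controls, a ratio of 1.03 with an interval of 0.415 to 2.57. The factors seen for PSMB9 and PSMB10 lie above that interval, and a change within the interval was not detectable at this depth.

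The immunoproteasome subunits stayed a small part of the cutting subunits. Per kilobase of exon they made up 0.408% ± 0.0721 of the counts of PSMB5 to PSMB10 in controls, 0.702% ± 0.0429 at 2.5 µM and 1.86% ± 0.237 at 5 µM (SD, n = 4 each). The controls ranged between 0.317% and 0.489%, the libraries at 2.5 µM between 0.659% and 0.761% and those at 5 µM between 1.56% and 2.10%, with no overlap. PSMB10 held 3.75% ± 0.532 of its pair with PSMB7 at 5 µM, against 0.893% ± 0.196 in controls. PSMB9 held 0.595% ± 0.0402 of its pair with PSMB6 at 5 µM, against 0.111% ± 0.0144 in controls. These shares are of messenger RNA, and protein was not measured.

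Markers of other cell types were read in the same libraries, mostly at a few counts. The 10 markers of blood cells, which carry immunoproteasomes, summed to 0.953 to 1.52 CPM in controls, 1.21 to 5.32 CPM at 2.5 µM and 4.81 to 7.25 CPM at 5 µM. The highest sum at 2.5 µM is that of replicate 3, where LYZ alone had 46 counts, and the other 3 libraries at 2.5 µM, at 1.21 to 1.75 CPM, lay within or just above the controls. PTPRC, the pan-leukocyte marker CD45, had 2 counts in controls, 19 at 2.5 µM and 119 at 5 µM over 4 libraries each. ITGAM had 6 counts in controls, 4 at 2.5 µM and 99 at 5 µM, and CD14 had 25, 40 and 82 counts in that order. CD3E had 0 counts, HBB and MS4A1 1 each and CD74 6 over all 12 libraries. PTPRC, ITGAM and CD14 passed the count filter through their 5 µM libraries, so their difference at 5 µM was fixed by the filter and no test of it is given.

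Markers of liver cells, endothelium and fibroblasts differed in both directions. The abundant hepatocyte gene CPS1 fell by 1.21 ± 0.040 (SE, adjusted p = 1.32e-23) at 5 µM against control, and DCN fell by 0.32 ± 0.050 (SE, adjusted p = 5.49e-07). Other markers were higher at 5 µM on few counts. TEK had 332 counts at 5 µM against 8 in controls, VWF 84 against 7, APOB 76 against 10 and FGB 109 against 17. The endothelial markers PECAM1 and CDH5 had 0 and 1 counts over all 12 libraries, and the fibroblast marker COL1A2 had 2. On more counts, PDGFRB rose by 1.86 ± 0.12 (SE, adjusted p = 4.91e-16) and COL1A1 by 0.45 ± 0.089 (SE, adjusted p = 3.13e-05) at 5 µM against control. Of the 5 tested markers of endothelium and fibroblasts, PDGFRB and COL1A1 were higher at 5 µM and DCN was lower. TEK and VWF passed the count filter through their 5 µM libraries, as did APOB and FGB. The difference of these 4 genes at 5 µM was therefore fixed by the filter, and no test of it is given. PSMB9 itself passed the count filter through treated libraries alone, while PSMB10 would have passed it in any group. The part of these markers in the result for PSMB9 and PSMB10 was not tested.

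**Figure D3:**
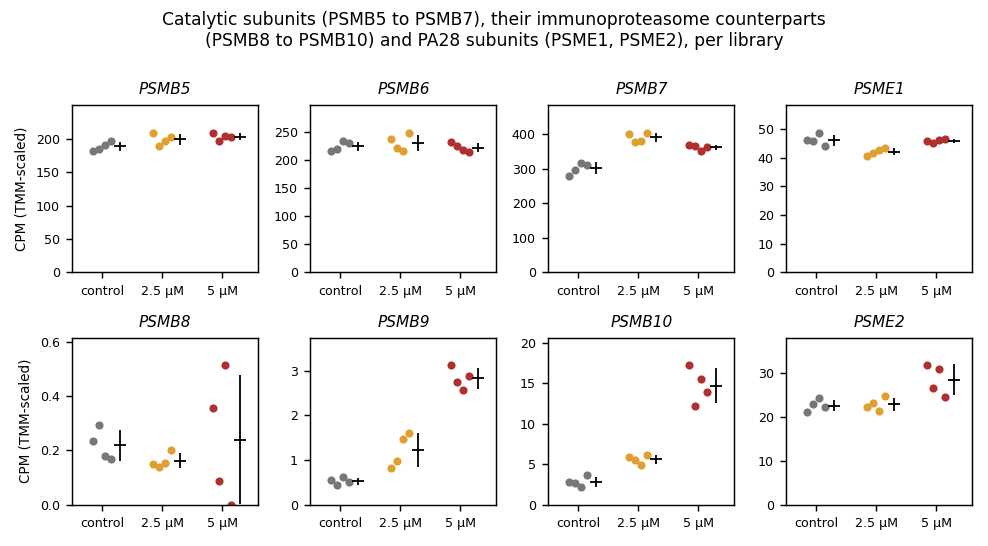
Level in CPM (y axes, from 0, each with its own scale) of the constitutive cutting subunits PSMB5, PSMB6 and PSMB7, their counterparts PSMB8, PSMB9 and PSMB10 and the caps PSME1 and PSME2 in each library, with mean ± SD beside the 4 points of a group. PSMB9 and PSMB10 step up with dose without overlap, PSMB8 does not, and PSMB5, PSMB6, PSMB7 and PSME1 change far less.

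PSME1 and PSME2 form the PA28 cap, another interferon-inducible partner of the immunoproteasome, and changed far less. PSME1 had 46.2, 45.6, 48.5 and 43.9 CPM in the control libraries, 40.4, 41.6, 42.7 and 43.4 CPM at 2.5 µM and 45.6, 45.1, 45.9 and 46.6 CPM at 5 µM. PSME1 had a log2 fold change of -0.006 ± 0.059 (SE, adjusted p = 0.924) at 5 µM and -0.13 ± 0.059 (SE, adjusted p = 0.0573) at 2.5 µM against control. The 2.5 µM values lie below both other groups, without overlap, and no comparison passed the test. On library size alone PSME1 rose at 5 µM against control by 0.13. PSME2 had 21.0, 22.8, 24.2 and 22.1 CPM in the control libraries, 22.2, 23.1, 21.2 and 24.7 CPM at 2.5 µM and 31.6, 26.5, 30.9 and 24.5 CPM at 5 µM. PSME2 rose by 0.33 ± 0.083 (SE, adjusted p = 0.000588) at 5 µM against control, with no overlap, and by 0.31 ± 0.082 (SE, adjusted p = 0.00125) between the doses, where the lowest value at 5 µM lies within the 2.5 µM values. Its log2 fold change at 2.5 µM against control was 0.021 ± 0.085 (SE, adjusted p = 0.846).

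Promoter sequence was available for 41 of the 47 genes, as 250 bases before to 50 after the first listed start in RefSeq on GRCh38.p14, and not for PSMA7, PSMB1, PSMB6, PSMB7, PSMD4 and PSMG3. The core of the interferon-stimulated response element, searched on both strands as GAAA, any 2 bases and GAAA again, occurred in 6 of 41 (14.6%), against 3.65% of 27305 promoters of all genes. The 6 were PSMA4, PSMB4, PSMB10, PSME1, PSME2 and PSMG4. The other motifs searched on both strands were the core of the antioxidant response element TGACNNNGC, in 12 of 41 (29.3%, against 13.6% of all promoters), the CCAAT box, in 18 (43.9%, against 35.7%), and the core of the gamma-activated site TTCNNNGAA, in 5 (12.2%, against 7.88%). A match describes the letters in the window and no binding. The 4 promoters with this interferon motif within 40 bases of the start are shown, because 3 of them belong to immunoproteasome or PA28 genes and the other to PSMG4, which fell. Each line runs from 120 bases before the start to the 20th base from it, and capitals mark the match or its reverse complement. The windows are chr16:67936831-67936970 on the minus strand for PSMB10, chr14:24136074-24136213 on the plus strand for PSME1, chr14:24146591-24146730 on the minus strand for PSME2 and chr6:3258827-3258966 on the plus strand for PSMG4, all GRCh38.p14.
PSMB10: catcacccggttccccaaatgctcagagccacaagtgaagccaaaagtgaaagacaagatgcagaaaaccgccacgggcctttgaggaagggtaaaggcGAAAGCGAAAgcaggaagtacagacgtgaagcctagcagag
PSME1: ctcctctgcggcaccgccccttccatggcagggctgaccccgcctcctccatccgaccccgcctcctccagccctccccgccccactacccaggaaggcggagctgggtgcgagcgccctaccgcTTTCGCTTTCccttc
PSME2: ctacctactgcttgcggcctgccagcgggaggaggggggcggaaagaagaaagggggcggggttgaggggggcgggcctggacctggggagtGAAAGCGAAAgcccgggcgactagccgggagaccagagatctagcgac
PSMG4: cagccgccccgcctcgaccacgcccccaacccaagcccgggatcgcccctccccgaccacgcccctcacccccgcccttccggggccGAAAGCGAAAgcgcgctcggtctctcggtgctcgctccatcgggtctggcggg

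At 5 µM against control the 4 genes had log2 fold changes of 2.38 for PSMB10, -0.006 for PSME1, 0.33 for PSME2 and -0.45 for PSMG4. The same letters therefore stood near the start of genes that rose steeply, rose slightly, did not pass the test and fell. Of the 2 members with the match farther out, PSMB4 rose by 0.50 and PSMA4 had -0.024. PSMB9 had no such match in its window.

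The regulatory particle fell at 5 µM in most of its genes. Of the 17 PSMC and PSMD genes of base and lid, 13 fell and 2 rose at 5 µM against control (88.2% changed, against 78.2% of all genes), with a median of -0.21. At 2.5 µM against control 6 rose and 3 fell, with a median of 0.016 (52.9% changed, against 59.1% of all genes). At 5 µM against 2.5 µM 12 fell and 1 rose, with a median of -0.26 (76.5% changed, against 68.4% of all genes). On library size alone 3 rose and 6 fell at 5 µM against control, 8 rose and 2 fell at 2.5 µM against control, and 3 rose and 9 fell between the doses.

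The ATPases of the base, which unfold the substrate and open the gate, fell at 5 µM against control in 5 of 6 genes, by small amounts. That is 83.3% changed, against 78.2% of all genes, while 39.4% of all genes fell. PSMC3 fell most, with 137 ± 9.66 CPM in controls, 128 ± 6.01 CPM at 2.5 µM and 108 ± 2.82 CPM at 5 µM, by 0.35 ± 0.052 (SE, adjusted p = 2.6e-07). PSMC2 had 139 ± 5.95 CPM in controls, 153 ± 3.18 CPM at 2.5 µM and 119 ± 8.24 CPM at 5 µM. It rose by 0.14 ± 0.050 (SE, adjusted p = 0.0187) at 2.5 µM and fell by 0.22 ± 0.050 (SE, adjusted p = 0.00022) at 5 µM against control, with no overlap in either comparison. PSMC4 had 206 ± 11.1 CPM in controls, 174 ± 6.92 CPM at 2.5 µM and 175 ± 6.46 CPM at 5 µM, so its fall by 0.24 ± 0.047 (SE, adjusted p = 3.98e-05) at 2.5 µM was as large as that by 0.24 ± 0.047 (SE, adjusted p = 3.69e-05) at 5 µM against control. PSMC5 fell by 0.21 ± 0.046 (SE, adjusted p = 7.78e-05) and PSMC6 by 0.19 ± 0.088 (SE, adjusted p = 0.0444) at 5 µM against control. PSMC6 overlapped with the controls and lost its call in 7 settings other than leaving out a library. The calls of PSMC2 and PSMC5 were lost on library size alone.

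The other base genes are the scaffolds PSMD1 and PSMD2, which bind the shuttles that deliver substrates, and the ubiquitin receptor PSMD4. PSMD4 had 183 ± 11.2 CPM in controls, 174 ± 5.07 CPM at 2.5 µM and 116 ± 4.37 CPM at 5 µM and fell by 0.66 ± 0.049 (SE, adjusted p = 4.62e-14) at 5 µM against control. PSMD1 had 221 ± 7.26 CPM in controls, 219 ± 4.72 CPM at 2.5 µM and 160.2 ± 7.38 CPM at 5 µM and fell by 0.47 ± 0.045 (SE, adjusted p = 3.23e-11). PSMD2 had 351 ± 12.6 CPM in controls, 375 ± 13.9 CPM at 2.5 µM and 344 ± 4.37 CPM at 5 µM, and its log2 fold change was -0.027 ± 0.042 (SE, adjusted p = 0.569) at 5 µM against control, although it rose by 0.11 on library size alone. At 2.5 µM against control 0 of these 3 genes passed the test, against 59.1% of all genes.

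The lid holds PSMD14, the enzyme that cuts ubiquitin from the substrate. PSMD14 had 102, 107, 99.6 and 102 CPM in the control libraries, 77.7, 82.1, 78.1 and 79.2 CPM at 2.5 µM and 46.2, 51.7, 45.8 and 53.3 CPM at 5 µM. The groups step down without overlap, and PSMD14 was 2.08-fold lower at 5 µM than in controls, a log2 fold change of -1.06 ± 0.056 (SE, adjusted p = 4.8e-18). It fell by 0.37 ± 0.054 (SE, adjusted p = 3.46e-07) at 2.5 µM against control and by 0.68 ± 0.056 (SE, adjusted p = 1.43e-12) between the doses. Its partner in the lid, PSMD7, took another course, with 207 ± 3.70 CPM in controls, 231 ± 5.19 CPM at 2.5 µM and 160.0 ± 8.77 CPM at 5 µM. PSMD7 rose by 0.16 ± 0.045 (SE, adjusted p = 0.00314) at 2.5 µM and fell by 0.37 ± 0.045 (SE, adjusted p = 4.91e-09) at 5 µM against control, with no overlap in either comparison.

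Of the 8 lid genes 6 fell and 2 rose at 5 µM against control, while 5 rose and 2 fell at 2.5 µM against control. These are 100% and 87.5% changed, against 78.2% and 59.1% of all genes. The 2 that rose at 5 µM, PSMD12 and PSMD13, are structural subunits. PSMD13 had 178 ± 13.3 CPM in controls, 212 ± 11.6 CPM at 2.5 µM and 230.4 ± 6.09 CPM at 5 µM and rose by 0.38 ± 0.051 (SE, adjusted p = 3.7e-08). PSMD12 had 149 ± 13.8 CPM in controls, 167 ± 10.4 CPM at 2.5 µM and 179 ± 2.62 CPM at 5 µM and rose by 0.27 ± 0.054 (SE, adjusted p = 4.23e-05). PSMD11, another structural subunit, had 284 ± 12.6 CPM in controls, 323 ± 9.83 CPM at 2.5 µM and 258 ± 4.86 CPM at 5 µM, so it was highest at 2.5 µM, and it fell by 0.14 ± 0.043 (SE, adjusted p = 0.00446) at 5 µM against control. PSMD6 had 46.6 ± 3.63 CPM in controls, 54.2 ± 0.991 CPM at 2.5 µM and 42.1 ± 2.00 CPM at 5 µM and fell by 0.15 ± 0.063 (SE, adjusted p = 0.0365) at 5 µM against control, with overlapping values. PSMD3 fell by 0.20 ± 0.047 (SE, adjusted p = 0.000298) and PSMD8 by 0.21 ± 0.049 (SE, adjusted p = 0.000262). The calls of PSMD3, PSMD6, PSMD8 and PSMD11 at 5 µM were lost on library size alone, that of PSMD11 also with upper-quartile scaling and a stricter count filter, and that of PSMD6 in 5 other settings.

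The assembly chaperones held the steepest fall of the family. Of 7 genes 4 fell and 1 rose at 5 µM against control (71.4% changed, against 78.2% of all genes). PSMG1 and PSMG2 pair to start the alpha ring, and PSMG3 and PSMG4 pair to help its order. PSMG1 had 116, 113, 121 and 127 CPM in the control libraries, 90.5, 88.8, 92.4 and 85.2 CPM at 2.5 µM and 44.1, 47.1, 46.8 and 47.4 CPM at 5 µM. The groups step down without overlap, and PSMG1 was 2.57-fold lower at 5 µM than in controls, a log2 fold change of -1.36 ± 0.054 (SE, adjusted p = 1.39e-21). It fell by 0.42 ± 0.051 (SE, adjusted p = 1.14e-08) at 2.5 µM against control and by 0.94 ± 0.054 (SE, adjusted p = 1.67e-16) between the doses. Its partner PSMG2 was near 3.30 ± 0.323 CPM in controls, on 531 counts in all, and did not pass the test, with 0.15 ± 0.17 (SE, adjusted p = 0.427) at 5 µM against control.

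PSMG3 had 93.0, 87.2, 93.3 and 91.5 CPM in the control libraries, 71.5, 70.5, 68.6 and 70.8 CPM at 2.5 µM and 48.9, 46.4, 47.5 and 45.7 CPM at 5 µM. It too steps down without overlap, and fell by 0.95 ± 0.053 (SE, adjusted p = 1.44e-17) at 5 µM against control, by 0.38 ± 0.051 (SE, adjusted p = 1.07e-07) at 2.5 µM against control and by 0.58 ± 0.053 (SE, adjusted p = 1.75e-11) between the doses. Its partner PSMG4 had 40.6 ± 1.72 CPM in controls, 45.2 ± 1.62 CPM at 2.5 µM and 29.9 ± 2.77 CPM at 5 µM. PSMG4 rose by 0.16 ± 0.066 (SE, adjusted p = 0.0418) at 2.5 µM against control, a call lost in 4 settings and in 9 fits without a library, and fell by 0.45 ± 0.069 (SE, adjusted p = 6.08e-07) at 5 µM against control.

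Of the 3 chaperones of the base, 1 rose, 1 fell and 1 did not pass the test at 5 µM against control. That is 66.7% changed, against 78.2% of all genes. PSMD5 had 93.1, 98.9, 90.0 and 95.8 CPM in the control libraries, 129, 125, 133 and 128 CPM at 2.5 µM and 137, 141, 143 and 136 CPM at 5 µM. PSMD5 rose by 0.56 ± 0.047 (SE, adjusted p = 1.2e-12) at 5 µM and by 0.45 ± 0.047 (SE, adjusted p = 7.92e-10) at 2.5 µM against control, with no overlap, and by 0.11 ± 0.046 (SE, adjusted p = 0.033) between the doses. The last call was lost in the fit without a count filter and in 5 fits without a library. PSMD5 is known to bind the base and to hold it from the core. PSMD10, also called gankyrin and known as an oncoprotein of liver cancer, had 115 ± 4.08 CPM in controls, 111 ± 2.98 CPM at 2.5 µM and 99.9 ± 2.84 CPM at 5 µM and fell by 0.20 ± 0.048 (SE, adjusted p = 0.000289) at 5 µM against control, a call lost on library size alone. PSMD9 had 21.3 ± 1.43 CPM in controls, 23.1 ± 1.73 CPM at 2.5 µM and 20.3 ± 1.65 CPM at 5 µM, and its log2 fold change was -0.068 ± 0.083 (SE, adjusted p = 0.462) at 5 µM against control.

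**Figure D4:**
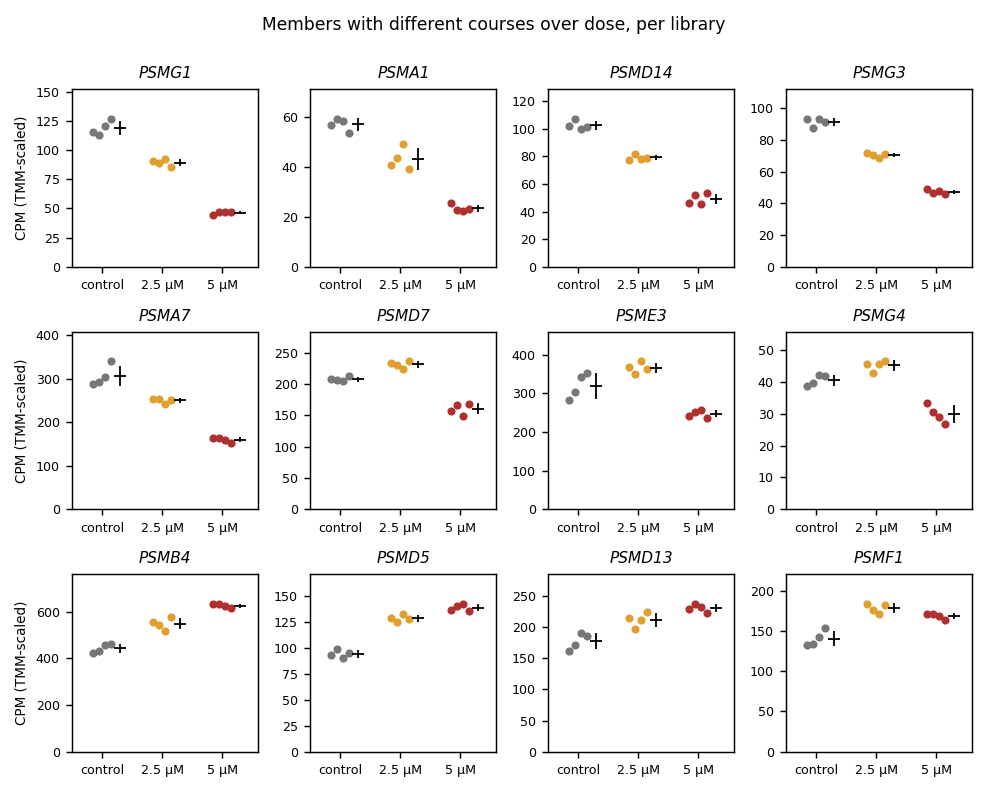
Level in CPM (y axes, from 0, each with its own scale) of 12 proteasome genes in each library of the control, 2.5 µM and 5 µM groups, with mean ± SD beside the 4 points. PSMG1, PSMA1, PSMD14, PSMG3 and PSMA7 step down with dose, PSMD7, PSME3 and PSMG4 are highest at 2.5 µM and lowest at 5 µM, and PSMB4, PSMD5, PSMD13 and PSMF1 lie above the controls at both doses.

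The remaining caps and the inhibitor split. PSME3 had 282, 303, 342 and 353 CPM in the control libraries, 367, 350.0, 383 and 363 CPM at 2.5 µM and 242, 253, 258 and 237 CPM at 5 µM. PSME3, the nuclear cap PA28 gamma, was lowest at 5 µM in all 4 libraries, while its 2.5 µM values overlap with the controls. It fell by 0.37 ± 0.054 (SE, adjusted p = 3.37e-07) at 5 µM against control, rose by 0.19 ± 0.054 (SE, adjusted p = 0.00257) at 2.5 µM against control and fell by 0.56 ± 0.054 (SE, adjusted p = 1.3e-10) between the doses. PSME4 had 125, 129, 130.3 and 127 CPM in the control libraries, 129, 133, 139 and 127 CPM at 2.5 µM and 113, 113, 103 and 108 CPM at 5 µM. PSME4, the large cap PA200, fell by 0.23 ± 0.048 (SE, adjusted p = 7.97e-05) at 5 µM against control and by 0.27 ± 0.048 (SE, adjusted p = 7.14e-06) between the doses, and the first of these calls was lost on library size alone. Its log2 fold change at 2.5 µM against control was 0.046 ± 0.047 (SE, adjusted p = 0.418).

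PSMF1 had 133, 133, 142 and 154 CPM in the control libraries, 184, 176, 171 and 182 CPM at 2.5 µM and 171, 170.5, 168 and 164 CPM at 5 µM. PSMF1 encodes PI31, found as an inhibitor of the core in vitro, and both doses lie above the controls without overlap. It rose by 0.26 ± 0.049 (SE, adjusted p = 1.24e-05) at 5 µM and by 0.34 ± 0.048 (SE, adjusted p = 2.51e-07) at 2.5 µM against control, and had -0.082 ± 0.048 (SE, adjusted p = 0.127) between the doses. Of the 2 interaction partners, PSMC3IP, a factor of meiotic recombination, had 33.5 ± 0.833 CPM in controls, 32.2 ± 2.00 CPM at 2.5 µM and 42.0 ± 3.57 CPM at 5 µM and rose by 0.32 ± 0.070 (SE, adjusted p = 8.82e-05) at 5 µM against control. PSME3IP1 had 128 ± 3.42 CPM in controls, 131 ± 4.19 CPM at 2.5 µM and 120.4 ± 3.06 CPM at 5 µM, with -0.089 ± 0.046 (SE, adjusted p = 0.0778) at 5 µM against control.

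Of the 35 members that changed at 5 µM against control, 24 kept their call in every alternative that tested them. PSMB9, which is among them, passed the main count filter through treated libraries alone. It was too low to be tested under the filter of at least 10 CPM in 4 libraries. The other 11 were PSMA6, PSMB5, PSMC2, PSMC5, PSMC6, PSMD3, PSMD6, PSMD8, PSMD10, PSMD11 and PSME4. The 9 that did not pass were PSMA2, PSMA4, PSMB2, PSMB6, PSMC1, PSMD2, PSMD9, PSMG2 and PSME1.

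The genes around the proteasome were described from 5 lists, and each count reads against 78.2% of all genes changed at 5 µM against control. Of 11 other subunits and bound factors 8 fell and 3 rose at 5 µM, with a median of -0.30. SEM1, the smallest lid subunit, had 102 ± 4.82 CPM in controls, 75.0 ± 2.37 CPM at 2.5 µM and 65.6 ± 2.54 CPM at 5 µM and fell by 0.63 ± 0.052 (SE, adjusted p = 8.23e-13). ADRM1, a ubiquitin receptor, had 136 ± 14.1 CPM in controls, 131 ± 8.09 CPM at 2.5 µM and 111 ± 5.82 CPM at 5 µM and fell by 0.30 ± 0.060 (SE, adjusted p = 4.27e-05), and UCHL5, the deubiquitinase that binds it, had 90.5 ± 8.22 CPM in controls, 78.9 ± 7.58 CPM at 2.5 µM and 46.9 ± 2.91 CPM at 5 µM and fell by 0.95 ± 0.069 (SE, adjusted p = 1.12e-13). ECPAS, which holds base and core together, had 225 ± 5.95 CPM in controls, 167 ± 1.33 CPM at 2.5 µM and 128 ± 7.60 CPM at 5 µM and fell by 0.80 ± 0.046 (SE, adjusted p = 4.89e-17). POMP, the chaperone that matures the core and is known to be induced together with immunoproteasome subunits, had 65.5 ± 4.49 CPM in controls, 74.2 ± 4.12 CPM at 2.5 µM and 79.0 ± 4.35 CPM at 5 µM and rose by 0.27 ± 0.059 (SE, adjusted p = 9.62e-05).

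Proteasome genes are known to be induced by NFE2L1, a membrane-bound transcription factor that is cut free by DDI2 when proteasomes are inhibited. NFE2L1 had 488, 434, 475 and 417 CPM in the control libraries, 362, 369, 359 and 386 CPM at 2.5 µM and 591, 572, 628 and 607 CPM at 5 µM. NFE2L1 was lowest at 2.5 µM and highest at 5 µM, without overlap. It rose by 0.40 ± 0.048 (SE, adjusted p = 2.68e-09) at 5 µM and fell by 0.30 ± 0.048 (SE, adjusted p = 2.6e-06) at 2.5 µM against control. NFE2L2, its relative that answers oxidants, had the same order, with 55.3 ± 3.24 CPM in controls, 47.3 ± 3.15 CPM at 2.5 µM and 67.0 ± 6.03 CPM at 5 µM, and rose by 0.28 ± 0.065 (SE, adjusted p = 0.000234) at 5 µM against control. DDI2 had the opposite order, with 46.2 ± 3.40 CPM in controls, 56.1 ± 2.24 CPM at 2.5 µM and 36.3 ± 4.08 CPM at 5 µM, and fell by 0.36 ± 0.072 (SE, adjusted p = 3.85e-05) at 5 µM against control. The small partners MAFF and MAFK rose at 5 µM by 0.75 ± 0.089 (SE, adjusted p = 2.77e-09) and 0.71 ± 0.079 (SE, adjusted p = 8.23e-10). In this list of 9 genes 8 were tested, and 4 rose and 2 fell at 5 µM against control, with a median of 0.13.

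Of the 6 genes for ubiquitin and its activating enzymes 3 fell and 2 rose at 5 µM against control. UBB, a polyubiquitin gene, had 522 ± 42.7 CPM in controls, 568 ± 24.6 CPM at 2.5 µM and 838 ± 37.7 CPM at 5 µM and rose by 0.69 ± 0.050 (SE, adjusted p = 2.47e-14). UBA1, the main activating enzyme, had 674 ± 39.1 CPM in controls, 556 ± 22.3 CPM at 2.5 µM and 365 ± 20.7 CPM at 5 µM and fell by 0.89 ± 0.048 (SE, adjusted p = 9.16e-18), and UBA6, the alternative one, fell by 0.66 ± 0.073 (SE, adjusted p = 5.81e-10). Of 11 shuttle receptors and p97 factors 7 fell and 2 rose at 5 µM against control, with a median of -0.26, and on library size alone 6 fell and 4 rose. UFD1 and FAF1, cofactors of p97, fell by 0.89 ± 0.056 (SE, adjusted p = 5.54e-16) and 0.76 ± 0.055 (SE, adjusted p = 2.61e-14).

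Among the genes of MHC class I presentation and interferon signalling more rose than fell. Of 24 listed genes 21 were tested, and 13 rose and 4 fell at 5 µM against control (81.0% changed), with a median of 0.53. At 2.5 µM against control 13 rose and 4 fell, with a median of 0.18 (81.0% changed, against 59.1% of all genes). Of all genes 30.7% rose and 28.5% fell in that comparison. TAP1 had 40.9, 40.0, 50.0 and 44.2 CPM in the control libraries, 59.6, 57.7, 62.2 and 61.5 CPM at 2.5 µM and 94.8, 88.1, 96.0 and 87.7 CPM at 5 µM. TAP1, a subunit of the peptide transporter, lies beside PSMB9 in the MHC region of chromosome 6, and its groups step up without overlap. TAP1 rose by 1.07 ± 0.062 (SE, adjusted p = 6.3e-17) at 5 µM against control, while its partner TAP2 had -0.079 ± 0.071 (SE, adjusted p = 0.311). HLA-E had 84.9 ± 7.26 CPM in controls, 131 ± 5.33 CPM at 2.5 µM and 289.6 ± 15.4 CPM at 5 µM and rose by 1.77 ± 0.054 (SE, adjusted p = 1.84e-24). Counts of HLA genes are uncertain because these genes share long stretches. ERAP1, which trims the peptides, rose by 1.43 ± 0.060 (SE, adjusted p = 7.53e-21).

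The interferon-responsive factor IRF1 had 12.8 ± 0.241 CPM in controls, 15.5 ± 1.68 CPM at 2.5 µM and 27.1 ± 1.05 CPM at 5 µM and rose by 1.08 ± 0.085 (SE, adjusted p = 1.5e-13) at 5 µM against control. The 4 genes of the list that fell were CALR, PDIA3, JAK1 and IFNGR1. IRF9, HLA-F and TAPBPL had too few counts to be tested.

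**Figure D5:**
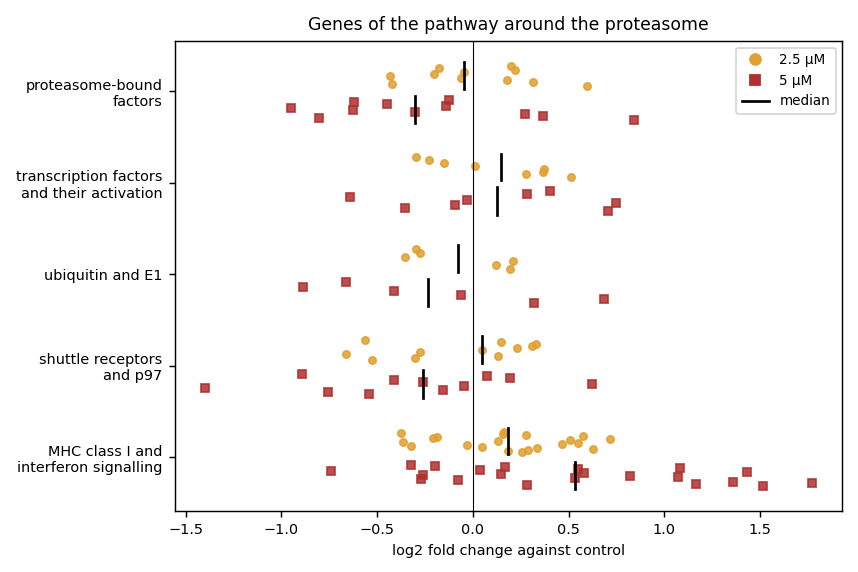
Log2 fold change against control (x axis) of the tested genes of 5 lists around the proteasome at 2.5 µM (circles) and 5 µM (squares), with the median of each list and dose as a black bar. The MHC class I and interferon list lies to the right at 5 µM with a median of 0.53, and the bound factors and shuttle receptors lie to the left, with medians of -0.30 and -0.26.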

How the data were processed

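The authors deposited 1 table of raw counts of reads per Ensembl gene for the 12 libraries. Per the labels' protocols, poly-A RNA was made into TruSeq Stranded libraries and read in 75 cycles. The submitters' processing notes name edgeR 3.8.6, STAR 2.4.1d, cutadapt 1.7.1, featureCounts 1.4.6, SAMtools 1.1, Bowtie2 2.2.4, bedtools 2.17.0, Cufflinks 2.1.1 and the build GRCh37, without roles. The sources used here do not give the strand setting or the handling of reads with several matches, so a gene and its antisense partner or close copies cannot be told apart.

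Symbols, gene classes and lengths came from GENCODE 29 by Ensembl identifier, and promoters from RefSeq. Levels per kilobase use the union of a gene's exons. Genes passing filterByExpr (16839) entered 1 fit of all 12 libraries in edgeR 4.0.16 (R 4.3.3), with TMM factors, robust quasi-likelihood and the 3 groups as terms. The SE is the fold change divided by the square root of F. Interval bounds for ratios are exact binomial. The steps were tested on simulated data in which few genes changed, unlike in these libraries. That test therefore does not cover the scaling where most genes change. Members and lists were chosen with earlier results of these data known. The rule for named genes gives values in every library for the cutting subunits, caps, PSMF1 and, per comparison, the 4 members with the largest rises and the 4 with the largest falls. It also names, from each pathway list, the 3 genes with the smallest p at 5 µM, and NFE2L1, NFE2L2, DDI2, POMP, SEM1, ADRM1, TAP1 and IRF1; some genes this rule names are not reported here. Alternatives were other scalings and filters, DESeq2 1.42.0, a replicate block, leaving out each library, other gene lengths and, chosen after seeing the data, added pseudogene counts. Of 66 library pairs 0 were identical, and replicates of a group differed by 1.72 to 5.75 times the counting noise in chi-square per degree of freedom.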

Additional observations from a re-analysis of the deposited data

Results flagged for a closer look

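In each group of 4 libraries, the gap of the highest or lowest value to its neighbour was set against the group's range. Of 147 groups 4 passed Dixon's critical value. Groups without any counts, those of PSMA8 and the controls of PSMB11, have no range and could not be examined. Chance passes about 1 in 20 groups. PSMA3 had 58.3 CPM in replicate 4 at 5 µM, against 43.6 to 45.7 CPM in the other 3. PSMC1 had 1.07 CPM in replicate 1 at 5 µM, against 0.859 to 0.879 CPM, on few counts. PSMG1 had 44.1 CPM in replicate 1 at 5 µM, against 46.8 to 47.4 CPM. PSMC3IP had 35.2 CPM in replicate 1 at 2.5 µM, against 31.0 to 31.6 CPM. PSMA3 and PSMG1 kept their calls at 5 µM against control without any one library.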

How the results depend on the processing

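Library size alone, without TMM factors, moved most. It gave 16 members that fell at 5 µM against control in place of 25 and 11 that rose at 5 µM against 2.5 µM in place of 6, and it turned PSME1 to 0.13, PSMB6 to 0.12 and PSMD2 to 0.11 at 5 µM against control; it leaves out the composition factors by construction. With pseudogene counts added PSMC1 turned to 0.17 and PSMA6 to 0.017 at 2.5 µM against control, and PSMA2 to 0.071 at 5 µM against 2.5 µM. The immunoproteasome share was 0.490% in controls, 0.844% at 2.5 µM and 2.19% at 5 µM with coding length, and 0.622% at 2.5 µM with the longest transcript. Over fits without one library, members that fell numbered 23 to 25 and those that rose 9 to 10 at 5 µM against control, 10 to 12 and 11 to 15 at 2.5 µM against control, and 23 to 27 and 4 to 6 at 5 µM against 2.5 µM; all genes changed numbered 12856 to 13457, 9382 to 9955 and 10928 to 11868 in the same comparisons. Same-numbered libraries correlated at -0.130 to 0.0745, and 1 of 12 matched its own number best. The counts thus gave no sign of pairing by number, which cannot exclude that cultures were paired, and the labels state no pairing. With the replicate block 10 members rose and 24 fell at 5 µM against control, and 4 calls were lost, those of PSMC6 at 5 µM against control, PSMG4 at 2.5 µM against control and PSMA2 and PSMD9 between the doses. Over all alternatives outside leaving out a library, 74 calls of single members were lost and 27 gained. Genes with few counts, such as PSMB8, PSMB9 and PSMC1, are limited by depth.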
